A study of Chlorocebus aethiops with 36 samples.

Results

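The arms of an anti-miR-33 study in African green monkeys were compared in liver after both had eaten a high carbohydrate, moderate cholesterol diet. Anti-miRs are short synthetic nucleic acids that pair with a microRNA and keep it from acting. The comparison took every liver array labelled as week 12, 6 from animals given anti-miR-33 and 6 from animals given a control anti-miR, which are 12 of the 36 arrays of the study. The other 24 arrays came from the same 12 animals at week -5, before treatment, and at week 4. All 12 animals were male. Each received its oligonucleotide at 5 mg/kg under the skin, first on chow for 4 weeks and then for 8 weeks on the diet, so diet and length of treatment were shared by the arms. At week 12 the oligonucleotide was the only labelled difference between the arms. The diet label of 1 week 4 array, that of control animal 1, gives the high carbohydrate diet where the protocol gives chow. That array enters the comparison only through the shared estimate of the spread. Each array is a separate animal, numbered 1 to 6 within its arm.

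The microRNA miR-33 lies in introns of the SREBF genes, which encode the transcription factors that drive sterol and fatty acid synthesis. It is known to repress the cholesterol exporter ABCA1 and several enzymes of fatty acid oxidation, among them CROT and HADHB, so blocking it is expected from earlier work to release those transcripts. A carbohydrate-rich diet is known to induce hepatic fatty acid synthesis through SREBF1, whose transcript carries one of the copies of miR-33 in primates. Mature miR-33 was not measured in the values analysed here, so its blockade was not checked directly.

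Expression was read on a human array (HG-U133 Plus 2.0), and values are on the log2 scale, on which a difference of 1 is a doubling. Differences are anti-miR-33 minus control, with the standard error (SE) of a limma fit, a moderated linear model run over all genes. An array measured levels for a probe set, a group of probes on one transcript, and levels were not compared between genes. The 12 arrays correlated across genes with Pearson r between 0.974 and 0.99. The first principal components, with 19.4% and 16.2% of the variance, did not separate the arms. The 3′ minus 5′ difference of the control transcripts, a measure of RNA degradation, was 1.85 ± 0.16 in control animals and 1.81 ± 0.17 in anti-miR-33 animals (SD, n = 6 each; exact permutation p = 0.665, two-sided). One array stood apart: on that of control animal 5 the highest value was 13.8, against 14.99 to 15.03 on the others, so abundant liver transcripts read low there. Lists whose median moved most without this array are given with and without it. Hepatocyte transcripts such as ALB (13.75 ± 0.28 in control and 13.88 ± 0.08 in anti-miR-33 animals) were present at high levels on all 12 arrays, as the tissue label says.

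At week 12 the 2 arms differed little. The limma fit called 0 of 13634 genes at a Benjamini-Hochberg adjusted p under 0.05 (0%). At an unadjusted p under 0.05, 184 genes were higher under anti-miR-33 (1.35%) and 230 were lower (1.69%), a total below what that threshold alone would give. The median difference over all genes was 0.00 with an SD of 0.11, 49.6% of genes lay above 0, and 0.462% differed by more than 0.5 in either direction. The median SE of a gene was 0.10. The 12 values of a gene fell apart completely, every animal of one arm above every animal of the other, for 5 genes higher under anti-miR-33 (0.0367%) and 5 lower (0.0367%). For 1 gene, complete separation in either direction has an exact permutation p of 0.00216, two-sided. The share of genes that separated was below that, so separation of a gene is given as a description only. Every adjusted p of a single gene below comes from this limma fit with Benjamini-Hochberg adjustment over 13634 genes. No named gene passed it, and their values are given as measurements. Counts within each list below are to be read against these shares of all genes.

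CROT encodes the peroxisomal carnitine octanoyltransferase, which hands shortened fatty acids on to mitochondria. In control animals its lowest, median and highest values were 8.08, 8.28 and 8.63, and in anti-miR-33 animals 8.26, 8.71 and 9.02. The ranges overlapped: 4 of 6 treated animals (2, 3, 5 and 6) lay above the highest control, whereas animal 4, at 8.26, lay below the control median. The means were 8.33 ± 0.19 and 8.68 ± 0.25 (SD, n = 6 each), a difference of 0.35 ± 0.11 (SE) or 1.27-fold. The exact permutation p for CROT alone was 0.0281, two-sided, where the smallest that 6 against 6 animals allow is 0.00216, and its limma adjusted p was 0.998. Before treatment the same animals had differed by -0.08. Leaving out each animal in turn moved the difference of CROT between 0.28 and 0.43, and without the array of control animal 5 it was 0.34.

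HADHB encodes the beta subunit of the mitochondrial trifunctional protein, which carries out the last steps of long-chain beta-oxidation. The lowest, median and highest values of HADHB were 7.63, 7.82 and 8.65 in control animals and 8.31, 8.49 and 8.80 in anti-miR-33 animals. All 6 treated animals lay above the control median and above 4 of 6 controls. Control animals 2 and 6, at 8.65 and 8.40, lay among the treated animals. HADHB averaged 7.99 ± 0.43 in control and 8.51 ± 0.17 in anti-miR-33 animals (SD, n = 6 each), a difference of 0.51 ± 0.16 (SE) or 1.43-fold. Its exact permutation p was 0.0368, two-sided, and its limma adjusted p 0.998. At baseline the difference was 0.06. Leaving out single animals, with all their arrays, gave a week 12 difference of 0.44 to 0.64. It was 0.45 without the array of control animal 5. CROT and HADHB were each measured by a single probe set above the filter on low values.

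HADHA, the alpha subunit of the same protein, showed the same pair of high controls but a smaller difference. Control animals 2 and 6 read 8.87 and 8.49, the other controls 7.42 to 8.10, and the treated animals 7.87 to 8.41. No treated animal exceeded the highest control. The difference was 0.17 ± 0.21 (SE; limma adjusted p = 0.998), and other probe sets of HADHA gave 0.07 and 0.05. Whether HADHB differed more than HADHA was not tested.

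**Figure D1:**
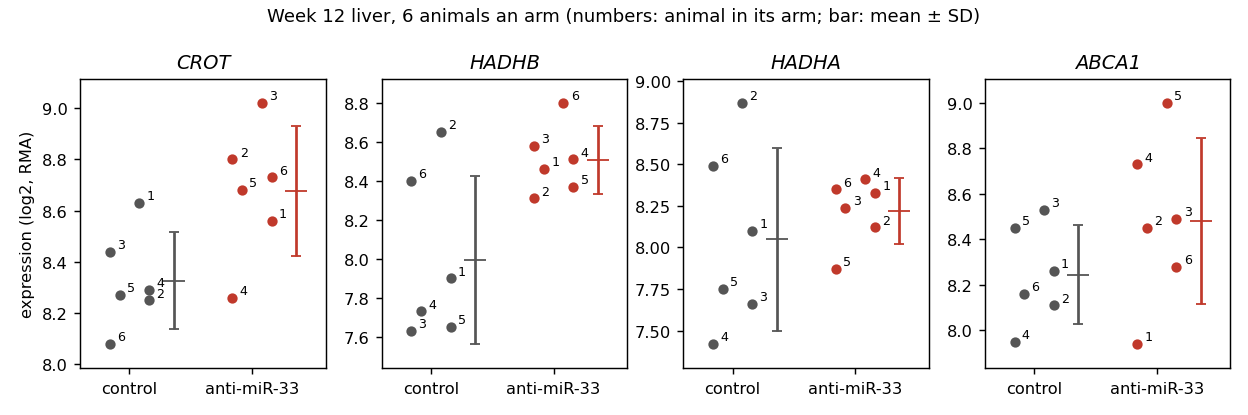
Log2 expression (vertical axis) of CROT, HADHB, HADHA and ABCA1 in each week 12 liver; numbered points are animals of the control and anti-miR-33 arms and bars are the mean ± SD of 6 animals. For CROT 4 of 6 treated animals lie above every control, and for HADHB control animals 2 and 6 lie among the treated animals.

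Genes of the carnitine shuttle and mitochondrial beta-oxidation lay slightly above 0 as a group, and less so without the array of control animal 5. Of 20 members tested, 0 passed the adjusted threshold, 1 (HADHB) had an unadjusted p under 0.05 with a higher value, and 15 (75%) lay above 0, where 49.6% of all genes did. The median member differed by 0.10. Without the array of control animal 5, 11 of 20 lay above 0 and the median was 0.01. CPT1A, which forms acylcarnitines at the entry of mitochondria and is itself a reported miR-33 target, differed by 0.23 ± 0.37, and its other probe sets by -0.02 and 0.06. Without control animal 3 the difference of CPT1A was 0.07 on the log2 scale. CPT2, the inner membrane partner, differed by 0.12 ± 0.24, and ACADM, the medium-chain acyl-CoA dehydrogenase, by 0.13 ± 0.10. Averaged over the 20 genes, control animals 2 and 6 stood at 8.70 and 8.68 and the other 4 controls at 8.10 to 8.34. The anti-miR-33 animals ran from 8.30 to 8.62, inside the control range. The mean of this average was 8.37 in control and 8.45 in treated animals, with an SD of 0.26 and 0.11. Neither the centre nor the spread of this average was tested between arms.

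The peroxisomal pathway shortens very long and branched fatty acids. Of its 12 genes tested, 8 (66.7%) lay above 0, with a median of 0.10, and CROT alone had an unadjusted p under 0.05. Without the array of control animal 5 the count was 6 of 12 and the median 0.01. The members other than CROT ran from -0.06 for DECR2 to 0.21 ± 0.19 for ACAA1, the peroxisomal thiolase, which stood at 0.04 without that array. In the plot of differences for both oxidation lists, CROT moved from 0.35 to 0.34 and HADHB from 0.51 to 0.45 without the array. Most other members also moved lower.

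**Figure D2:**
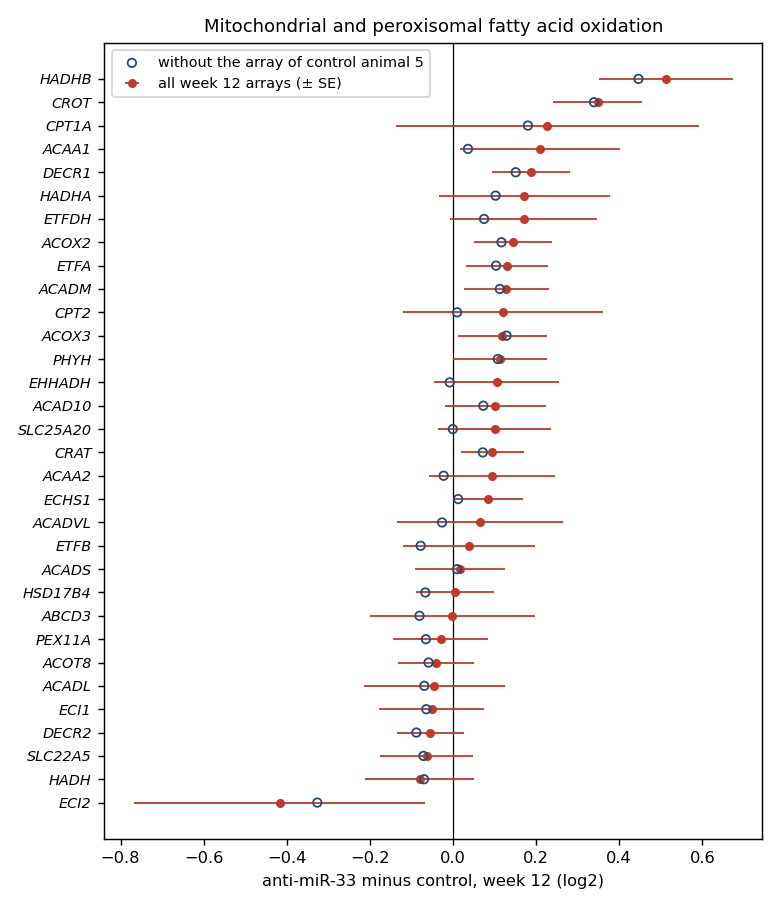
Difference between arms (horizontal axis, log2, anti-miR-33 minus control) for each gene of mitochondrial and peroxisomal fatty acid oxidation; filled points with SE bars use all week 12 arrays and open circles leave out the array of control animal 5. HADHB at 0.51 and CROT at 0.35 lie highest, and ECI2 at -0.42 lies lowest.

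Among 26 genes reported elsewhere to be repressed by miR-33, 18 (69.2%) lay above 0, where 49.6% of all genes did. Their median difference was 0.06, and 0 passed the adjusted threshold. At an unadjusted p under 0.05, 3 were higher (CROT, HADHB and OSBPL6) and 1 was lower (NRIP1). Of all genes 1.35% were higher and 1.69% lower at that threshold. Leaving out single animals left 16 to 19 of the 26 above 0 and a median between 0.04 and 0.10. The list was compiled from memory of reporter and cell studies, and 2 of those 3 genes are the markers described above.

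ABCA1, which loads cholesterol onto nascent high-density lipoprotein, is the best-known target of miR-33. Control animals ran from 7.95 over a median of 8.21 to 8.53, and anti-miR-33 animals from 7.94 over 8.47 to 9.00. Treated animals 4 and 5 lay above every control and treated animal 1 below every control. The difference was 0.24 ± 0.17 (SE; limma adjusted p = 0.998). Leaving out treated animal 5 gave 0.13 for ABCA1 and leaving out treated animal 1 gave 0.35.

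OSBPL6, an oxysterol-binding protein of cholesterol trafficking, ran from 4.59 to 5.90 with a median of 5.23 in control animals, and from 5.19 to 6.32 with a median of 5.79 in treated animals. The difference was 0.55 ± 0.26 (SE; limma adjusted p = 0.998), with 3 of 6 treated animals above the highest control. A second probe set of OSBPL6 gave 0.11. At baseline it had differed by 0.21.

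NRIP1, a co-repressor of nuclear receptors that restrains oxidative genes, is a reported target that lay the other way. It ran from 8.88 to 9.57 with a median of 9.06 in control and from 8.45 to 9.20 with a median of 8.69 in treated animals, with 4 of 6 treated animals below the lowest control. The difference was -0.38 ± 0.16 (SE; limma adjusted p = 0.998), and a second probe set of NRIP1 gave -0.38. At baseline the arms had differed by -0.24.

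For 4 other reported targets the differences were as follows. PRKAA1, a catalytic subunit of AMP-activated kinase, differed by 0.16 ± 0.16. IRS2, an adaptor of the insulin receptor, differed by -0.19 ± 0.34, and the late endosomal cholesterol transporter NPC1 by 0.01 ± 0.11. PPARGC1A, a coactivator of mitochondrial genes, differed by 0.78 ± 0.48, but its control values ran from 5.16 to 9.10, treated values lay inside that range, and the arms had already differed by 0.85 before treatment. Leaving out control animal 4 gave 0.36 for PPARGC1A and leaving out control animal 2 gave 1.15.

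The 15 regulators of fatty acid oxidation had no common direction. Of these, 7 (46.7%) lay above 0, 1 (NRIP1) had an unadjusted p under 0.05, and the median was -0.02, which was -0.05 with 4 of 15 above 0 without the array of control animal 5. PPARA, the fatty acid receptor that induces oxidation genes, differed by 0.15 ± 0.13, and by 0.07 without that array. Of 8 genes of fatty acid uptake and activation, 7 lay above 0 with a median of 0.15, which was 0.05 with 5 of 8 above 0 without the array of control animal 5. The member below 0 was CD36, the fatty acid translocase of the cell surface. Its lowest, median and highest values were 5.91, 7.26 and 8.53 in control and 5.91, 6.17 and 6.88 in treated animals. All 6 treated animals lay below the control median, though the ranges overlapped. CD36 differed by -0.93 ± 0.34 (SE; limma adjusted p = 0.998), or 1.90-fold lower, and a second probe set gave -0.94. At baseline it had already differed by -0.72 ± 0.34, and without control animal 4, the highest, the week 12 difference of CD36 was -0.66.

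On the synthesis side, transcripts of SREBF1 and several of its targets were lower on average under anti-miR-33, and none passed the adjusted threshold. SREBF1 encodes the main driver of fatty acid synthesis in liver. Control animals ran from 6.67 to 10.48 with a median of 8.04 and treated animals from 6.54 to 8.82 with a median of 7.47. The treated animals lay in the lower part of the control range, except 1 that lay just below it. The difference was -0.69 ± 0.42 (SE; limma adjusted p = 0.998), and -0.23 without control animal 4. A second probe set of SREBF1 gave 0.06, and at baseline SREBF1 had differed by 0.05. SREBF2, which drives cholesterol synthesis, differed by -0.04 ± 0.08.

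FASN encodes the fatty acid synthase. It ran from 7.73 to 12.49 with a median of 10.57 in control and from 8.13 to 11.83 with a median of 9.86 in treated animals. Control animal 4 was highest and control animal 6 lowest of all 12 animals, so the control arm alone spanned every treated value of FASN. The difference was -0.52 ± 0.68 (SE), and it moved between -1.06 without control animal 6 and -0.11 without control animal 4. At baseline FASN had already differed by -0.44 ± 0.68. A second probe set gave 0.08.

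ACLY, the citrate lyase that supplies acetyl-CoA for synthesis, ran from 6.12 to 8.42 with a median of 6.60 in control animals and from 5.98 to 7.28 with a median of 6.20 in treated animals. All treated animals but animal 5 lay below the control median. The difference was -0.55 ± 0.27 (SE; limma adjusted p = 0.998), and -0.25 without control animal 4. Other probe sets of ACLY gave -0.14 and -0.30. MID1IP1, an activator of acetyl-CoA carboxylase, differed by -0.43 ± 0.21, and by -0.19 without control animal 4. The carboxylase ACACA itself differed by 0.05 ± 0.12, the elongase ELOVL6 by -0.09 ± 0.58 and the desaturase SCD by 0.15 ± 0.38. At baseline ACACA, ELOVL6 and SCD had differed by 0.06, -0.39 and 0.37.

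Of all 18 synthesis and desaturation genes tested, 5 (27.8%) lay above 0, where 49.6% of all genes did, and the median was -0.09. At an unadjusted p under 0.05, 2 had lower values, as did 1.69% of all genes, and 0 passed the adjusted threshold. The direction turned without control animal 4. Averaged over the 18 genes, that animal stood at 9.06 and the other 5 controls at 7.41 to 8.38. The treated animals ran from 7.37 to 8.54, and without control animal 4 the median was 0.04 with 11 of 18 genes above 0. The plot of synthesis genes by animal shows control animal 4 highest in the 6 panels, and treated animal 4 low throughout.

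**Figure D3:**
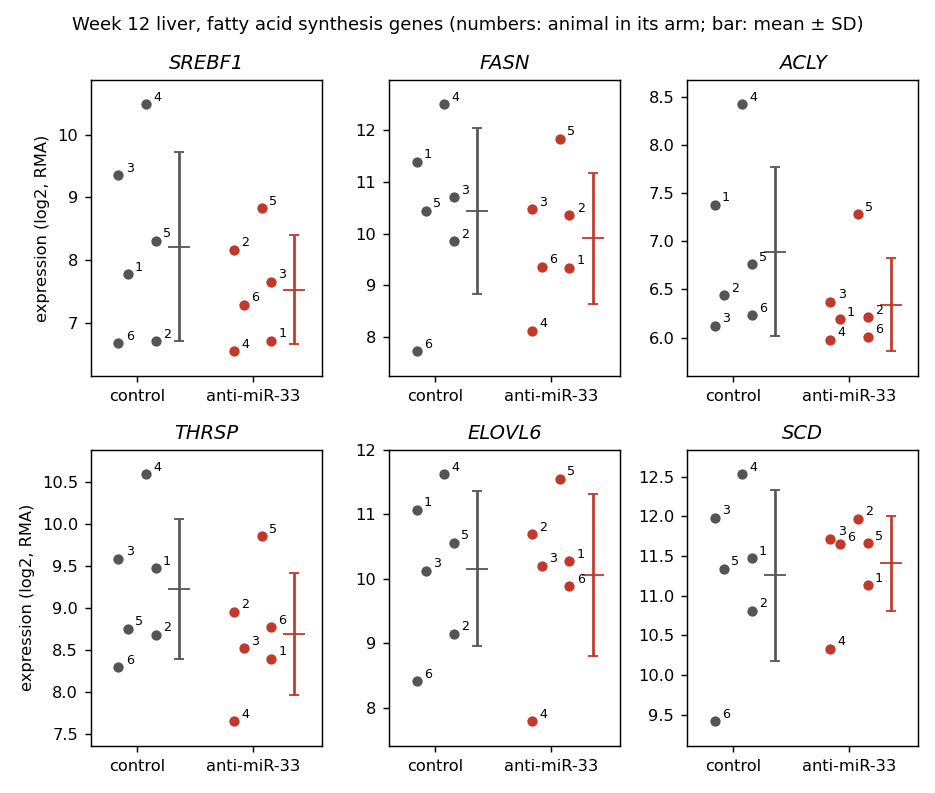
Log2 expression (vertical axis) of 6 genes of fatty acid synthesis in each week 12 liver; numbered points are animals and bars are the mean ± SD of 6 animals an arm, and THRSP was added after its values were seen. Control animal 4 is the highest point in each panel, and the controls of FASN span 7.73 to 12.49, the full range of the treated animals.

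Genes of cholesterol handling had small median differences. Among 18 genes of cholesterol synthesis and uptake, 6 (33.3%) lay above 0 with a median of -0.03. Among 16 genes of cholesterol efflux and liver X receptor targets, 8 (50%) lay above 0 with a median of -0.01. Without the array of control animal 5 these were 4 of 18 with -0.06 and 6 of 16 with -0.05. None of either list had an unadjusted p under 0.05. Of 19 genes of triglyceride synthesis and lipid droplets, 5 (26.3%) lay above 0, where 49.6% of all genes did. Their median was -0.03, or -0.06 without that array. PLIN5, which coats lipid droplets beside mitochondria, differed by 0.22 ± 0.11 (limma adjusted p = 0.998), while its 4 other probe sets ran from -0.27 to 0.12. Without the array of control animal 5 the difference of PLIN5 was 0.17 ± 0.11.

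The lipoprotein list had 11 of 14 members above 0 with a median of 0.12, which was 0.02 without the array of control animal 5. Its outlying member was APOA4, an apolipoprotein of triglyceride-rich and high-density lipoproteins. The lowest, median and highest values of APOA4 were 5.39, 5.95 and 6.96 in control and 5.44, 5.50 and 5.65 in treated animals. All 6 treated animals lay below the control median and close together, while control animal 5 lay below them all. The difference was -0.51 ± 0.16 (SE; limma adjusted p = 0.998), against 0.12 at baseline, -0.65 without the array of control animal 5 and -0.32 without control animal 1. Bile acid synthesis and transport genes had 10 of 14 members above 0 with a median of 0.05, and 8 of 14 with a median of 0.01 without the array of control animal 5. CYP27A1, which oxidises the cholesterol side chain, differed by 0.17 ± 0.07, with 5 of 6 treated animals above the highest control, and by 0.15 ± 0.08 without that array.

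Genes of AMP-activated kinase (4 of 9 above 0, median -0.01), of glucose metabolism and insulin signalling (7 of 19, median -0.03) and of ketone body synthesis (1 of 2, median 0.02) had no member at an unadjusted p under 0.05. Without the array of control animal 5 the glucose and insulin list had 5 of 19 above 0 and a median of -0.11, and the ketone body median was -0.02. Oxidative phosphorylation subunits had 16 of 22 above 0 with a median of 0.05, and 14 of 22 with a median of 0.02 without the array of control animal 5. NDUFA1 of complex I differed by 0.17 ± 0.08 (limma adjusted p = 0.998), and by 0.14 ± 0.08 without that array.

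The interferon response, genes that interferons induce against viruses, lay mostly below 0 under anti-miR-33 whichever animal was left out. Of 30 members tested, 2 (6.67%) lay above 0, the median was -0.17, 7 had an unadjusted p under 0.05 with a lower value (230 of 13634 genes, 1.69%, did so) and 0 passed the adjusted threshold. Leaving out each animal in turn left 1 to 4 members above 0 and a median between -0.22 and -0.14, and without the array of control animal 5 the median was -0.14. The members are induced together, so they are not independent counts.

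BST2, also called tetherin, holds budding viruses at the cell surface. Its lowest, median and highest values were 7.48, 8.01 and 8.16 in control and 7.11, 7.44 and 7.77 in treated animals. All 6 treated animals lay below the control median and 3 lay below every control. The means were 7.93 ± 0.28 and 7.43 ± 0.27 (SD, n = 6 each), a difference of -0.49 ± 0.14 (SE; limma adjusted p = 0.998), against 0.01 at baseline. Leaving out single animals kept BST2 between -0.58 and -0.43.

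OASL and OAS1 belong to the oligoadenylate synthetase family, sensors of double-stranded RNA. OASL ran from 5.73 to 6.93 with a median of 6.38 in control animals and from 5.34 to 6.06 with a median of 5.86 in treated animals, a difference of -0.54 ± 0.17 (SE; limma adjusted p = 0.998). OAS1 ran from 5.97 to 6.97 with a median of 6.68 in control and only from 5.96 to 6.22 in treated animals, a difference of -0.43 ± 0.14. Second probe sets gave -0.14 for OASL and -0.23 for OAS1. PARP9, an ADP-ribosyltransferase family member of the interferon programme, differed by -0.43 ± 0.15, and its second probe set by -0.18. At baseline OASL, OAS1 and PARP9 had differed by 0.12, -0.08 and -0.23. HERC6, chosen after its values were seen as the member furthest from 0, differed by -0.65 ± 0.23.

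The controls were of both kinds for this programme. Averaged over the 30 genes, control animals 2 and 6 stood at 6.43 and 6.40 and the other 4 controls at 6.75 to 6.81. The treated animals ran from 6.31 to 6.61, all below those 4 controls and on both sides of animals 2 and 6. These are the controls that were highest for mitochondrial oxidation genes, and they were also highest for the immediate early list, with averages of 7.94 and 7.65 against 6.83 to 7.23 in the other controls. NLRC5, an inducer of class I antigen presentation genes that is not on the interferon list, ran from 5.58 to 6.28 in control and from 5.37 to 5.84 in treated animals, a difference of -0.41 ± 0.12 (SE; limma adjusted p = 0.998).

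**Figure D4:**
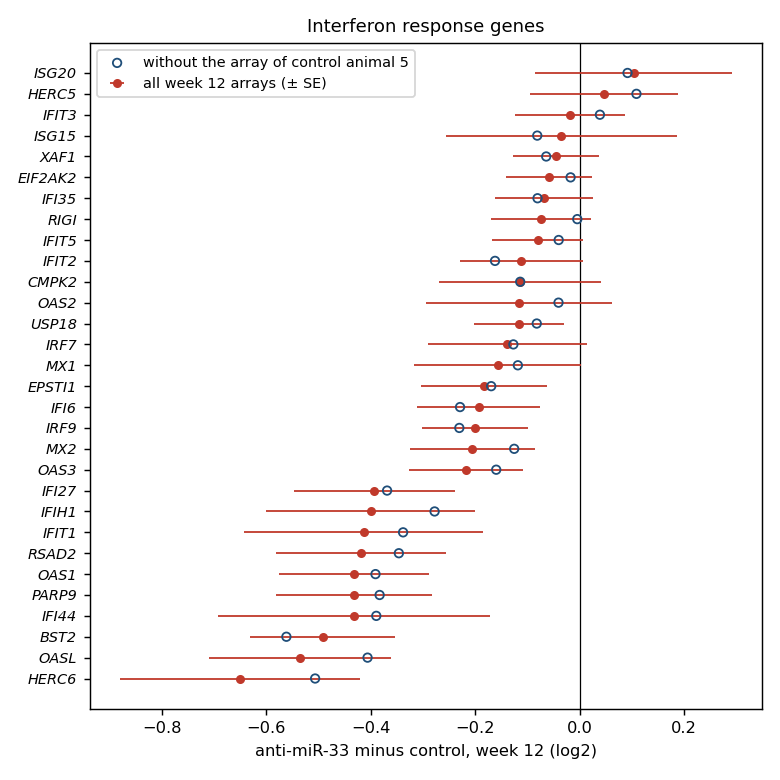
Difference between arms (horizontal axis, log2, anti-miR-33 minus control) for the 30 interferon response genes tested; filled points with SE bars use all week 12 arrays and open circles leave out the array of control animal 5. All filled points but those of ISG20 and HERC5 lie below 0, with HERC6 at -0.65 and BST2 at -0.49.

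The medians of several other programmes depended on single arrays or animals. All 16 acute phase genes, plasma proteins that rise or fall in inflammation, lay above 0 with a median of 0.14. Without the array of control animal 5, 15 of 16 did, with a median of 0.07. HP, FGB, SERPINA1 and AHSG of this list are also among the hepatocyte markers below. FGA, a fibrinogen chain, differed by 0.22 ± 0.10, and by 0.17 without that array, and its second probe set by 0.15. Among 20 genes of endoplasmic reticulum stress, 13 lay above 0 with a median of 0.08, which was 0.03 without that array and -0.01 without treated animal 6. HSPA5, the main chaperone of that compartment, ran from 9.45 to 10.98 in control and from 10.09 to 11.53 in treated animals, a difference of 0.58 ± 0.29 (SE; limma adjusted p = 0.998).

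Immediate early genes, which respond within minutes to stress or handling, had 2 of 19 members above 0 and a median of -0.18, but -0.03 without control animal 2. DUSP1, a phosphatase of that group, differed by -0.73 ± 0.33 and its other probe sets by -0.04 and -0.07. The transcription factor JUN differed by -0.57 ± 0.27, and by -0.33 without control animal 2, and its second probe set by -0.25. Cell cycle genes had 2 of 16 above 0 with a median of -0.13, and left-out animals gave -0.19 to -0.10. Their values were low: 16 of 25 listed genes passed the filter of 4.46. The average of those 16 ran from 5.26 to 5.82 in control and from 5.22 to 5.56 in treated animals. The replication helicase subunits MCM2 and MCM7 differed by -0.21 ± 0.09 and -0.23 ± 0.11 (limma adjusted p = 0.998 for both), and a second probe set of MCM7 by -0.14.

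Markers of the cell types a liver biopsy can hold were read beside these groups, since in bulk tissue fewer cells of a type and less RNA per cell cannot be told apart. All 19 hepatocyte markers lay above 0 with a median of 0.13, and 14 of 19 with a median of 0.01 without the array of control animal 5. On that array their average was 11.58, against 11.98 to 12.18 in the other 5 controls and 12.07 to 12.18 in treated animals. TTR, the transthyretin transcript, differed by 0.19 ± 0.09 with it and 0.08 ± 0.06 without it. The oxidation, lipoprotein and acute phase lists moved in the same way when that array was left out, and its part in their shifts beyond this was not tested.

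Markers of Kupffer cells and other macrophages had 3 of 14 members above 0 and a median of -0.12. Their average ran from 6.74 to 7.02 in control and from 6.48 to 7.05 in treated animals, so the ranges overlapped. C1QA, a complement component made by these cells, differed by -0.35 ± 0.14, with 4 of 6 treated animals below the lowest control and treated animal 4 above all controls. FCER1G, a signalling chain of myeloid receptors, differed by -0.36 ± 0.15, and its second probe set by -0.43 (limma adjusted p = 0.998 for C1QA and FCER1G). The part of macrophage content in the interferon values was not tested.

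Lymphocyte markers had 3 of 14 members above 0 with a median of -0.08, or -0.04 without the array of control animal 5, and KLRB1 of natural killer cells differed by -0.26 ± 0.13. Endothelial markers had 4 of 16 above 0 with a median of -0.07. Stellate cell and fibrosis markers had 5 of 14 above 0 with a median of -0.03, which turned to 9 of 14 and 0.01 without the array of control animal 5. DCN, the matrix proteoglycan decorin, differed by -0.45 ± 0.16, with 5 of 6 treated animals below the lowest control and its other probe sets at -0.33, -0.44 and -0.43, against -0.31 at baseline. COL4A1, a basement membrane collagen, differed by -0.36 ± 0.17 and its second probe set by -0.05. The plasma cell, neutrophil and blood, and fat and muscle lists had 4, 5 and 5 members tested and medians of -0.05, 0.02 and -0.02, or -0.05, 0.06 and 0.01 without the array of control animal 5.

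**Figure D5:**
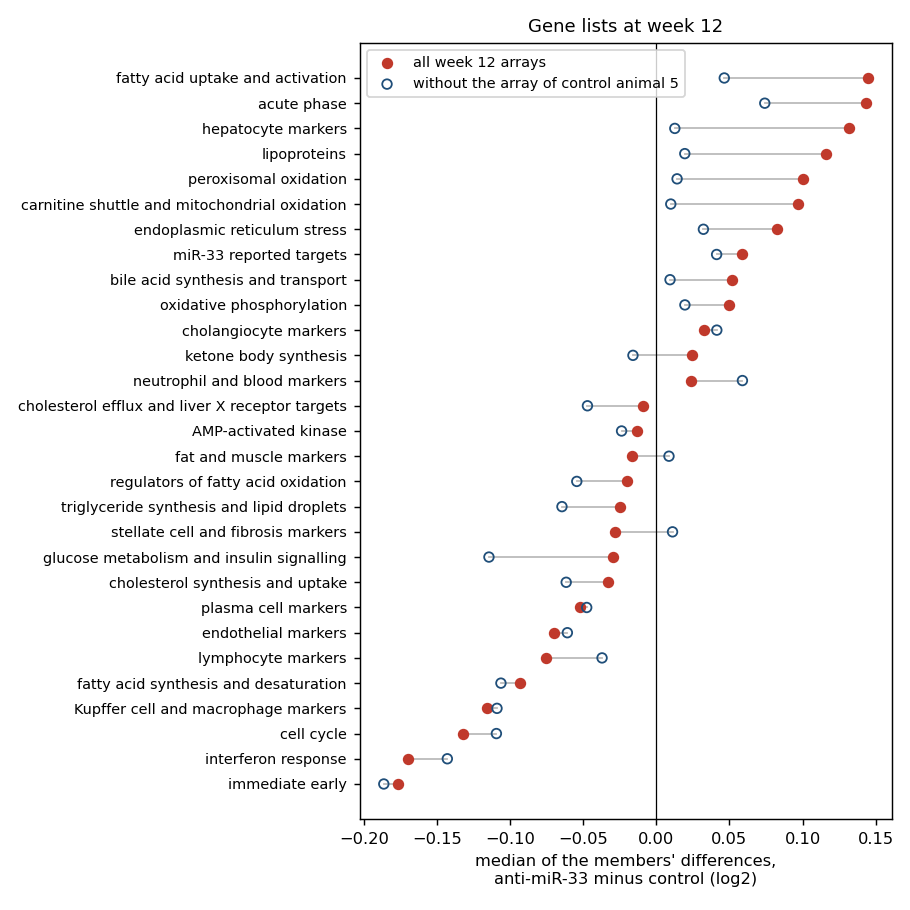
Median difference between arms (horizontal axis, log2, anti-miR-33 minus control) of the genes in each of 29 lists (rows); filled points use all week 12 arrays and open circles leave out the array of control animal 5. Hepatocyte markers move from 0.13 to 0.01 and mitochondrial oxidation from 0.10 to 0.01, while the interferon response stays at -0.17 and -0.14.

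Of the 29 lists, 13 had a median above 0 and 16 below it, between -0.18 and 0.15. When single animals were left out in turn, 17 lists kept the sign of their median in all 12 fits and 12 did not.

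Over all genes, PLAAT2 and PIN4 had the smallest p. PIN4 encodes a parvulin prolyl isomerase. Its lowest, median and highest values were 8.77, 8.94 and 9.13 in control and 9.15, 9.33 and 9.50 in anti-miR-33 animals, so the arms did not overlap. The means were 8.93 ± 0.14 and 9.33 ± 0.15 (SD, n = 6 each), a difference of 0.40 ± 0.09 (SE) or 1.32-fold, against 0.00 at baseline, and the limma adjusted p was 0.313. A second probe set of PIN4 gave 0.47 ± 0.08 and also separated the arms, whereas a further one gave -0.04.

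After this second probe set was seen, each of the 22385 probe sets with a single gene was also tested on its own. That fit called 1 of them (0.00447%), the second probe set of PIN4, at a limma adjusted p of 0.0342. Wider versions of the same fit over 27304 and 54613 probe sets called this probe set too, with adjusted p of 0.0402 and 0.0467. Leaving out each animal in turn kept the call of PIN4 in 4 of 12 fits, with limma adjusted p from 0.0052 to 0.387. The planned test by gene called 0 genes, so PIN4 is reported as passing only a test chosen after the data were seen.

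ATP2B2, a plasma membrane calcium pump, also separated the arms. It ran from 6.55 to 7.18 with a median of 7.03 in control and from 7.23 to 7.68 with a median of 7.41 in treated animals, a difference of 0.45 ± 0.10 (SE; limma adjusted p = 0.512). Its 3 other probe sets above the filter gave -0.01 to 0.10. FETUB, a liver-secreted protease inhibitor, ran from 8.79 to 9.45 in control and from 9.07 to 10.35 in treated animals, a difference of 0.65 ± 0.18 (limma adjusted p = 0.998). The selenoprotein genes SELENOW and SELENOH differed by 0.45 ± 0.11 and 0.33 ± 0.09, after 0.41 and 0.16 at baseline. A second probe set of SELENOW gave 0.29, and the 4 others of SELENOH gave 0.10 to 0.36. EPCAM, a surface protein of bile duct and progenitor cells, differed by 1.03 ± 0.29 or 2.04-fold, with 4 of 6 treated animals above the highest control, against 0.56 at baseline. Its values were low, from 4.25 to 5.83 in control and from 4.81 to 7.12 in treated animals, where the filter on low values was 4.46. Without treated animal 6 the difference of EPCAM was 0.78. The other 7 cholangiocyte markers ran from -0.19 to 0.22. HMGB3P1 and CLHC1 differed by 0.34 ± 0.09 and 0.50 ± 0.15, after 0.19 and 0.45 at baseline.

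Among genes lower under anti-miR-33, PLAAT2, a phospholipid acyltransferase of the PLAAT family, had the smallest p. Its lowest, median and highest values were 7.43, 7.94 and 8.46 in control and 6.78, 7.31 and 7.55 in treated animals. The ranges met: 4 of 6 treated animals lay below the lowest control. The difference was -0.70 ± 0.15 (SE; limma adjusted p = 0.313) or 1.63-fold lower, against -0.12 at baseline. Its other probe sets did not share it, at 0.10 and -0.14. FGF13, an intracellular relative of the fibroblast growth factors, separated the arms with a difference of -0.86 ± 0.24, after -0.66 at baseline. LITAF, a regulator of endosomal sorting, differed by -0.41 ± 0.11 after -0.34 at baseline, GRK3, a receptor kinase, by -0.45 ± 0.13 after -0.55, and ECRG4 by -0.86 ± 0.26 after -0.73. PXDN, a peroxidase of basement membranes, differed by -0.46 ± 0.13 after -0.08, and a second probe set of PXDN gave -0.12. A second probe set of LITAF gave -0.57, and the others of GRK3 gave -0.16 and -0.19. For FGF13, LITAF, GRK3 and ECRG4 the arms of week 12 thus differed by about as much before any treatment was given.

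The remaining genes whose arms did not overlap, listed because of that separation, were CCDC127 (0.17 ± 0.07), INIP (0.23 ± 0.11) and TMEM238L (0.20 ± 0.08) on the higher side. On the lower side they were CDC42 (-0.15 ± 0.06), LINC00938 (-0.30 ± 0.11), RBM27 (-0.17 ± 0.07) and TNFRSF13B (-0.29 ± 0.10). CDC42, a small GTPase of the cytoskeleton, ran from 11.29 to 11.40 in control and from 11.06 to 11.28 in treated animals, a separation of 0.01 between the nearest animals.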

How the data were processed

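The authors deposited 1 table of log2 values for 54675 probe sets, made with RMA per the submitters' processing notes. RMA corrects background, normalizes between arrays and summarises probes, which would remove a shift common to most transcripts. No source used here gives its version or says whether the 36 arrays were run together. Per the labels' protocols, Trizol RNA was labelled with biotin by an Enzo method. All columns were matched to samples and 0 were left unused.

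Human probes met monkey transcripts, so mismatches can lower a probe set in both arms. The platform annotation named 1 gene for 41097 probe sets, several for 1801 and none for 11777, and 62 were the maker's controls. Each gene was represented by its probe set with the highest overall mean, if not below the median of all probe sets (4.46), which gave 13634 genes. Where a named gene differed by over 2 SE, its other probe sets above that filter are given.

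In limma 3.58.1 (R 4.3.3), 6 means, arm by time, were fitted over all 36 arrays, with the animal as a random block (correlation 0.151), and the week 12 arms were contrasted. The arm of a baseline array came from the later labels of its animal. The tests were two-sided, adjusted with Benjamini-Hochberg at 0.05, and the pipeline was tested on simulated data. The number of arrays limits the precision. Alternatives were week 12 arrays alone, the replicate block, other filters, the mean of a gene's probe sets, array weights, other scalings, a robust fit, an RNA quality covariate and animals or an array left out.

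Named genes were CROT and HADHB, fixed lipid genes, the 8 of smallest p in each direction, and up to 4 members of each list with an unadjusted p under 0.05. Any other gene named was chosen after its values were seen. The 29 lists held 489 genes, of which 43 were not named alone by the annotation, and are described by counts and medians without a set test. The members and lists were chosen with earlier results of these data known.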

Additional observations from a re-analysis of the deposited data

Results flagged for a closer look

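In 174 groups of 6 values (58 named genes and 29 lists, each in both arms), the animal at one end was set against its nearest neighbour. In 9 of these the gap was a larger part of the range than Dixon's critical value for 6 values allows, where chance gives about 1 in 20.

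Control animal 5, whose array had a low highest value, accounts for 3. Its TTR value was 13.38, with the next control at 14.03. Its average over hepatocyte markers was 11.58, with the next at 11.98, and over lipoprotein genes 10.0, with the next at 10.38. The difference between arms for TTR was 0.19 with this array and 0.08 without it.

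Anti-miR-33 animal 4 accounts for another 3. Its average over lipoprotein genes was 10.64, with the next treated animal at 10.45. Over neutrophil and blood markers it was 6.64 with the next at 6.32, and over endothelial markers 6.23 with the next at 5.95. The same animal was the lowest treated animal for CROT, at 8.26, and for FASN, at 8.13.

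The rest were single cases. Anti-miR-33 animal 5 had an ACLY value of 7.28 with the next at 6.37. Anti-miR-33 animal 1 had an FGF13 value of 5.01 with the next at 6.37. Control animal 4 had a plasma cell marker average of 7.55 with the next at 7.63.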

How the results depend on the processing

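The count of 0 genes at an adjusted p under 0.05 in limma held in the other 23 fits by gene that used another filter, probe set rule, scaling, weighting or covariate or left out 1 animal or array. At an unadjusted p under 0.05 the count of 414 genes ran from 325 with a stricter filter to 585 with array weights, and from 340 to 518 with single animals left out. Testing each probe set on its own, chosen after seeing the data, called 1 of 22385, 1 of 27304 or 1 of 54613, each time the same PIN4 probe set.

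Replicate numbers were shared by animals of different arms and do not pair them: same-numbered animals correlated at -0.27 to 0.06, and 0 of 6 controls correlated best with its own number. A fit of the week 12 arrays with the replicate block called 0 genes and left 421 at an unadjusted p under 0.05.

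CROT and HADHB kept their direction in every fit run. The sign of 6 named genes near 0 turned. With single animals left out, NPC1 ran from -0.066 to 0.13, IRS2 from -0.38 to 0.11, CPT2 from -0.045 to 0.31, ACACA from -0.038 to 0.12, ELOVL6 from -0.44 to 0.36 and SCD from -0.22 to 0.41. ELOVL6 was also 0.13 with array weights and 0.040 without the array of control animal 5. The cause was not tested.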
